A study of Mus musculus with 17 samples.

Results

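Elastic fibre and microfibril genes were followed through mouse skin and kidney by single-cell RNA sequencing of sorted reporter-positive cells. The members were given by name as elastin (Eln), the fibrillins Fbn1 and Fbn2, the microfibril-associated proteins Mfap2, Mfap4 and Mfap5, the fibulins Fbln1, Fbln2 and Fbln5, and Emilin1, which are 10 of the 30406 genes that all 17 libraries shared. All 10 were counted in both tissues, and all 10 passed the filter on low counts in skin stromal cells.

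The mice were 8 weeks old and carried PDGFRb-Cre, in which the Pdgfrb promoter drives Cre in mural cells, fibroblasts and some blood-lineage cells, together with the Z/EG reporter that turns on GFP after recombination. SARATg mice also carried a human ZFYVE9 (SARA) cDNA behind a floxed stop at Rosa26 under the CAG promoter, and SARAWT mice lacked it. For skin, mice had subcutaneous PBS or bleomycin at 20 mg/kg, 3 times per week for 2 weeks per the labels, with 3 SARAWT PBS, 3 SARAWT bleomycin, 1 SARATg PBS and 1 SARATg bleomycin libraries. For kidney, mice had intraperitoneal vehicle or aristolochic acid at 5 mg/kg, 3 times per week for 3 weeks, with 3 SARAWT vehicle, 3 SARAWT aristolochic acid, 2 SARATg vehicle and 1 SARATg aristolochic acid libraries. GFP+ cells were sorted from digested tissue before 10x Genomics 3′ libraries were made. The labels do not say whether libraries of a group came from separate animals, so p-values measure only the spread between libraries.

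Elastic fibres form when cross-linked elastin is laid onto a scaffold of microfibrils, and they let skin, vessels and lung recoil after stretch. Fibrillin-1 and fibrillin-2 polymerise into the microfibrils, MAGP-1 (Mfap2), MAGP-2 (Mfap5) and MFAP4 bind to them, fibulin-5 guides elastin onto them, and EMILIN1 sits at the boundary between elastin and microfibrils. Microfibrils also hold latent TGF-β complexes in the matrix, and lysyl oxidases cross-link the elastin.

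Promoter sequences are shown for 2 members that were lower together in stromal cells after bleomycin, Mfap2 and Fbln1, and for Fbln5, whose libraries overlapped between treatments. They are RefSeq windows of build GRCm38.p6, upstream of a transcript start, in the gene's own orientation, at chr4:141010174-141010423 (plus strand) for Mfap2, chr15:85205699-85205948 (plus strand) for Fbln1 and chr12:101819120-101819369 (minus strand) for Fbln5. Each of the 3 genes has 2 windows in that table, and the one with fewer bases inside the annotated gene is printed. Capitals mark the GC box, searched as GGGCGG on both strands and so also read as CCGCCC.
Mfap2: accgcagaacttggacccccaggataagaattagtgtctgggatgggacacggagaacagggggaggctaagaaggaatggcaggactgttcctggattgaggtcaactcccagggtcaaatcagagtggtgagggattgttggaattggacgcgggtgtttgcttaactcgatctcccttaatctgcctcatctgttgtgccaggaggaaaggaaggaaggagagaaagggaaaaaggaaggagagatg
Fbln1: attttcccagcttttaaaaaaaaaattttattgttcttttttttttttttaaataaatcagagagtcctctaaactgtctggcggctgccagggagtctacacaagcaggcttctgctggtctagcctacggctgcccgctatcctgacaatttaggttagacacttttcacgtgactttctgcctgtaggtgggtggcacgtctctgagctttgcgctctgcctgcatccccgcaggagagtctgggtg
Fbln5: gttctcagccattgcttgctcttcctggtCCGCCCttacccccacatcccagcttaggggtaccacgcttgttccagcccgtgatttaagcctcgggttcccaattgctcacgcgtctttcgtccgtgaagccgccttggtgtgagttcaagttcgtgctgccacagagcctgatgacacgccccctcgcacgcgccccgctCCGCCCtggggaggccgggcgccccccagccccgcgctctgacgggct
The printed Fbln5 window held 2 GC boxes and the other printed windows none. The windows not printed went the other way, with 2 GC boxes for Mfap2, 1 for Fbln1 and none for Fbln5. Over all genes, 32.7% of the 32851 windows of this length held at least 1. The AP-1 motif TGANTCA (in 6.75% of all windows), the CAGA box AGCCAGAC (1.05%) and the TATA box TATAAA (12.4%) were in none of the 3 printed, on either strand. These matches describe the letters only.

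Libraries held 3355217 to 69765525 unique molecular identifiers (UMIs) in skin and 28660151 to 137093834 in kidney, and 30085 skin and 61744 kidney cells were kept, those in which 200 or more genes were detected and mitochondrial genes took no more than 20% of UMIs. Mouse Zfyve9, the gene for SARA, went against the label in some libraries: it was at 621 CPM (UMIs of the gene per 1000000 UMIs) in the library labelled SARAWT PBS 3, above the 314 and 224 CPM of the SARATg skin libraries, against 7.75 to 26.0 CPM in the other SARAWT skin libraries. In the library labelled SARAWT PBS 1, a separate entry for human ZFYVE9, present in 4 skin libraries, was at 838 CPM against 87.4 to 187 CPM in the other 3. In kidney the library labelled SARAWT aristolochic acid 1 was at 164 CPM and the library labelled SARATg aristolochic acid 1 at 20.6 CPM. The 4 skin libraries with the longer gene list shared 7.38% to 55.5% of their cell barcodes with another skin library, and the other 4 under 1%. The library labelled SARAWT PBS 2 was the smallest, with a median of 1271 UMIs per kept cell.

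On mouse build GRCm38, in the GENCODE annotation, Eln spans chromosome 5 from 134702593 to 134747323 on the minus strand and Emilin1 spans chromosome 5 from 30913402 to 30921277 on the plus strand. Fbn1 spans chromosome 2 from 125300594 to 125507993 on the minus strand, and Fbn2 lies on chromosome 18. Mfap2 spans chromosome 4 from 141010418 to 141015984, Mfap4 chromosome 11 from 61485431 to 61488900, and Mfap5 chromosome 6 from 122505845 to 122529290, all on the plus strand. Fbln1 spans chromosome 15 from 85205949 to 85286535 and Fbln2 chromosome 6 from 91212455 to 91272540 on the plus strand, and Fbln5 spans chromosome 12 from 101746565 to 101819055 on the minus strand.

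Cell classes were set by marker genes, 8 per class and no member among them, and a cell needed at least 3 markers of its class and 2 more than of any other. In skin 3104 cells (10.3%) were stromal (Pdgfra, Dcn, Lum, Col1a1 and others), 144 mural (Rgs5, Notch3, Cspg4, Mcam and others) and 68.8% leukocytes, although the sort was on the PDGFRb-Cre reporter. In stromal-gated cells the median number of leukocyte markers detected was 0 in every skin library. Of the stromal cells, 349 had no marker to spare, and 429 cells missed the gate by 1 marker.

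Among skin cell types, most UMIs of these genes, pooled over libraries, lay in stromal cells. Stromal-gated cells held 94.6% of all skin UMIs of Eln, 92.0% of Fbn1, 89.6% of Fbn2, 93.2% of Mfap2, 94.6% of Mfap4, 95.2% of Mfap5 and 89.4% of Fbln1. These shares are pooled over libraries of unequal depth, and for these 7 genes the lowest library was between 42.3% (Fbn2) and 82.3% (Mfap5). The pooled share was lower for the fibulins Fbln2 (76.8%) and Fbln5 (81.5%) and lowest for Emilin1 (58.3%), of which leukocyte-gated cells held 22.8%. The lowest stromal share in a library was 28.8% for Fbln2, 57.5% for Fbln5 and 21.1% for Emilin1.

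**Figure D1:**
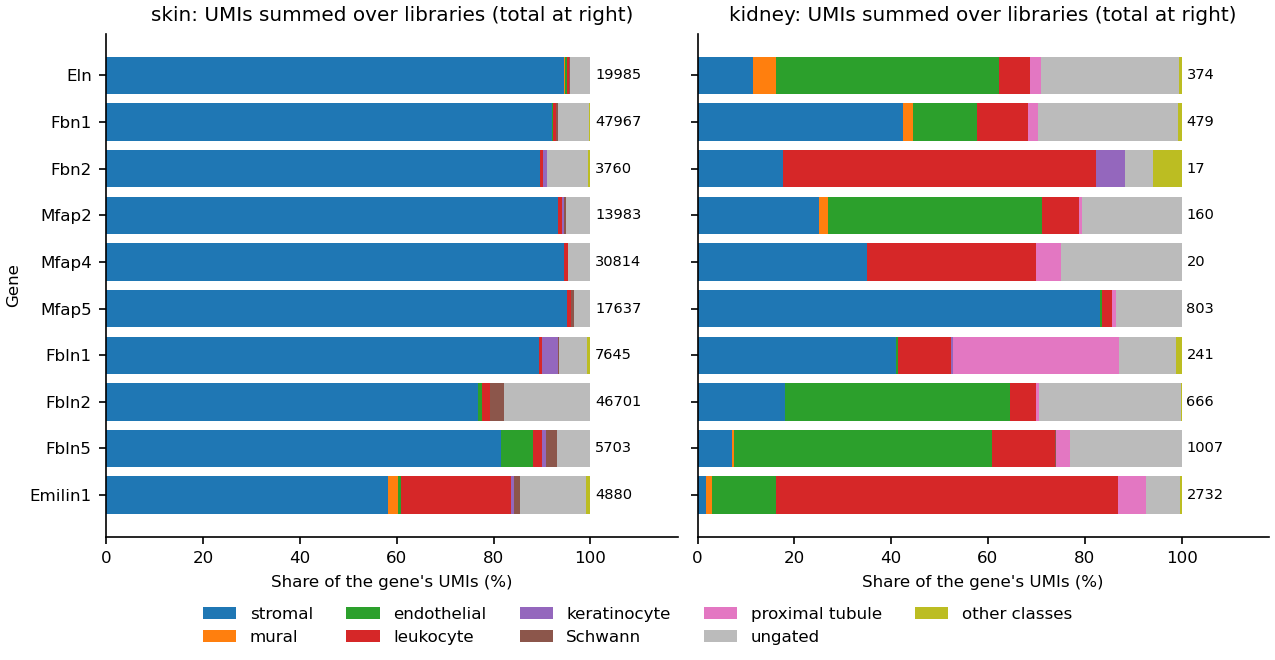
Share of each gene's UMIs (horizontal axis, %) that fell in each marker-gated cell class, summed over the skin libraries (left) and the kidney libraries (right), with the gene's total UMIs at the right of each bar. In skin the stromal class holds 58.3% (Emilin1) to 95.2% (Mfap5) of the pooled UMIs, and in kidney 1.79% (Emilin1) to 83.2% (Mfap5).

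Against mural cells the pooled contrast was large for 9 of the 10 genes. The sums of stromal-gated and mural-gated cells were compared within the 7 skin libraries with at least 10 cells of both classes (SARAWT bleomycin 1, with 4 mural cells, was left out). All 10 members passed edgeR's quasi-likelihood test with the library as a block, 9 higher in stromal cells and Emilin1 higher in mural cells, where 37.4% of all 9149 genes tested passed (22.8% higher in stromal cells and 14.6% lower). The count is a description for 7 of the 9, which had 0 to 3 UMIs in mural cells and so passed the filter on low counts through the stromal sums alone.

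Elastin itself was present in mural cells. Eln was at a pooled 365 CPM in stromal cells and 36.3 CPM in mural cells, a ratio of 10.1 (95% interval 7.26 to 14.4, counting error only). It was higher in stromal cells in 5 of the 7 libraries (log2 difference 3.03, SE 0.64, edgeR adjusted p = 0.000804). The libraries where it was not higher were both after bleomycin, SARAWT bleomycin 3 and SARATg bleomycin. For Fbn1 the ratio was 14.6 (11.3 to 19.4), with 826 CPM in stromal and 56.4 CPM in mural cells, and stromal cells were higher in 7 of 7 libraries.

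The microfibril-associated and fibulin genes had few or no UMIs in mural cells. Ratios on so few UMIs give no order among these genes, as their intervals show. Over the 7 libraries Mfap2 had 3 mural UMIs (ratio 82.6, 28.3 to 401), Fbln1 had 2 (64.1, 17.8 to 529.8), Fbln5 had 2 (42.4, 11.7 to 350.3) and Mfap4 had 1 (556, 99.8 to 21965). Fbn2, Mfap5 and Fbln2 had none, so that against a floor of 3 UMIs over the class (3.02 CPM) they were at least 21.1-fold, at least 103-fold and at least 216-fold higher in stromal cells.

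Emilin1 ran the other way. Its level was 105 ± 28.1 CPM (SD, n = 7 libraries) in mural cells and 52.1 ± 8.30 CPM (n = 8) in stromal cells, and mural cells were higher in 7 of 7 libraries (pooled ratio of stromal to mural 0.542, 0.442 to 0.671; log2 difference -0.76, SE 0.22, edgeR adjusted p = 0.00954). The call was lost without a filter on low counts, with a stricter filter on cells and with a looser gate.

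**Figure D2:**
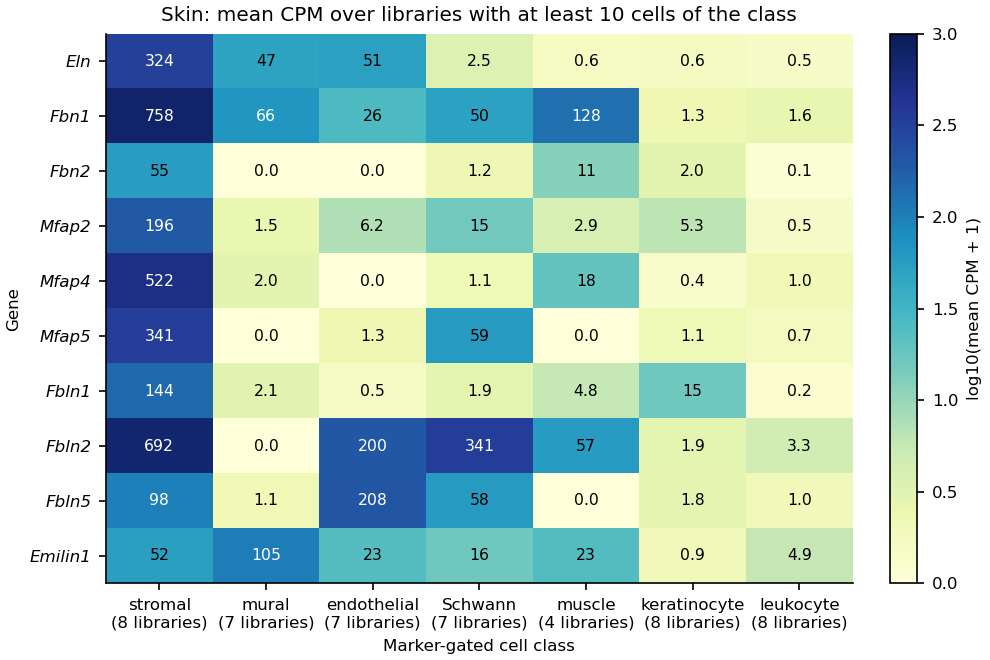
Mean CPM over skin libraries (colour, log scale) for each gene (rows) in each marker-gated cell class (columns, with the number of libraries that had at least 10 cells of the class). Rows are to be read across classes and not between genes. Stromal cells are the highest of the 7 classes shown for every gene but Fbln5, which is highest in endothelial cells (208 CPM), and Emilin1, which is highest in mural cells (105 CPM).

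Several members had a second class with a level far from that of leukocytes, in which free RNA can leave UMIs. Fbln5 was at 208 ± 125 CPM (n = 7) in endothelial-gated cells and 98.0 ± 48.4 CPM (n = 8) in stromal cells, which overlapped across libraries (57.8 to 356 CPM and 46.5 to 175 CPM), and at 0.953 ± 1.25 CPM in leukocytes. Fbln2 was at 692 ± 143 CPM in stromal cells and 341 ± 279 CPM (n = 7) in Schwann-gated cells. The Schwann libraries after bleomycin (438 to 668 CPM) overlapped with stromal cells, and those after PBS (48.4 to 57.9 CPM) lay far below. Fbln2 was at 199.97 ± 133 CPM (n = 7) in endothelial cells, below every stromal library, and at 3.31 ± 2.19 CPM in leukocytes. Fbn1 was at 758 ± 176 CPM in stromal cells, 128 ± 46.5 CPM (n = 4) in muscle-gated cells and 49.8 ± 14.2 CPM (n = 7) in Schwann cells, so that its stromal level stood apart from both.

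For Mfap2 and Mfap4 no library of another class came near the stromal mean. Mfap2 was at 196 ± 137 CPM in stromal cells (lowest library 44.2 CPM) and at most 25.2 CPM in any library of another class. Mfap4 was at 522 ± 429.6 CPM in stromal cells and at most 44.2 CPM elsewhere, in muscle cells. That muscle library was about level with the lowest stromal library of Mfap4, at 45.3 CPM. Mfap5 was at 341 ± 160.3 CPM in stromal cells, with Schwann cells next at 58.6 ± 65.7 CPM, and the highest Schwann library (177.7 CPM) lay above the lowest stromal one (138 CPM). Fbln1 was at 144 ± 113 CPM in stromal cells and was at 15.5 ± 8.10 CPM (n = 8) in keratinocyte-gated cells, where all 8 libraries were above 0. Melanocyte-gated cells reached 10 cells in 1 library only, the one labelled SARAWT PBS 3, where 21 cells held 36 Fbln1 UMIs, 109 CPM (76.6 to 151, 95% exact Poisson interval) beside 147 CPM in its stromal cells, while Fbln5 was at 18.2 CPM (6.69 to 39.7) and no other member exceeded 2 UMIs.

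The share of cells with a UMI was far higher in stromal cells than in leukocytes for all 10 genes. With every cell thinned to 1000 UMIs, which left out 343 of the stromal and 771 of the leukocyte-gated cells for being shallower, Fbn1 was detected in 43.8% ± 8.17 of stromal cells and 0.199% ± 0.161 of leukocytes (73.7% and 1.23% unthinned). Fbln2 was detected in 42.6% ± 5.93, Mfap4 in 21.4% ± 12.6, Mfap5 in 20.4% ± 8.27 and Eln in 17.3% ± 11.6 of stromal cells, and none of the 10 exceeded 0.456% of leukocytes (all n = 8 libraries). The mean over libraries of the median depth was 11348 UMIs per stromal cell and 8474 per leukocyte.

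The main comparison asked whether bleomycin, the drug that induces skin fibrosis in this model, moved these genes in SARAWT stromal cells. Elastin and most microfibril genes were at lower mean levels after bleomycin, Mfap4 with an overlap through bleomycin 2, while Fbln2, Fbln5 and Emilin1 overlapped between treatments. In the fit without a replicate block, none of the 10 members passed edgeR's quasi-likelihood test, where 1.37% of the 10665 genes tested did (0.778% higher and 0.591% lower). There the unadjusted p of 6 members, and of 2602 of the 10665 genes, was under 0.05. DESeq2 called 5 members (Eln, Fbn2, Mfap2, Mfap5 and Fbln1) among 809 genes. With the replicate number as a block 6 members passed, all lower, where 9.56% of 11256 genes passed (4.73% higher and 4.83% lower). The median log2 change of the members was -1.14 without the block, against -0.03 over all genes.

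The deviations of same-numbered PBS and bleomycin libraries correlated weakly in stromal cells (0.18, 0.21 and 0.36). Between numbers 1 and 2 they correlated at -0.06 and 0.04. Same-numbered libraries also shared a gene list, so pairing and batch cannot be told apart. Without the libraries labelled PBS 1 and PBS 3, the single PBS library left was PBS 2, the smallest in skin, with 160 stromal cells. Of its cell barcodes, 55.5% were shared with another skin library. Against that library alone, the 7 members with a negative log2 fold change in the fit without the block (all but Fbln2, Fbln5 and Emilin1) were at log2 fold changes of -2.46 (Eln) to -0.67 (Fbn1). The PBS and bleomycin libraries did not overlap for 6 members (Eln, Fbn1, Fbn2, Mfap2, Mfap5 and Fbln1), all lower, where 16.8% of the 8901 genes with a group mean of at least 10 CPM were lower without overlap and 15.8% higher.

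Eln, which encodes the elastic core itself, was at 481, 686 and 401 CPM in the 3 PBS libraries and 38.3, 241 and 95.6 CPM in the 3 bleomycin libraries. Every bleomycin library lay below every PBS library, with means of 523 ± 147 and 125 ± 105 CPM (SD, n = 3 each). Eln fell in the blocked fit (log2 fold change -2.37, SE 0.36, edgeR adjusted p = 0.0179) and was at -2.07 (SE 0.57, adjusted p = 0.0867) without the block.

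The fibrillins build the microfibril itself. Fbn1 was at 999, 953 and 688 CPM after PBS and 617, 663 and 489.7 CPM after bleomycin, without overlap, but did not pass either fit (log2 fold change -0.55, SE 0.14, adjusted p = 0.0558 with the block). Fbn2, the fibrillin most used in development, was at 236, 40.1 and 38.0 CPM after PBS and 30.0, 19.4 and 21.2 CPM after bleomycin. Fbn2 fell in the blocked fit (log2 fold change -1.69, SE 0.39, adjusted p = 0.0404). The PBS mean of 105 ± 114 CPM rested on the library labelled PBS 1. In the fit without the block Fbn2 was at -2.10 (SE 0.66, edgeR adjusted p = 0.114), and at -0.73 when that library was left out.

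The microfibril-associated genes were lower as well. Mfap2 was at 351, 243 and 193 CPM after PBS and 65.2, 174 and 79.6 CPM after bleomycin, without overlap. Mfap4 was at 644, 1190.2 and 382 CPM after PBS and 109.9, 619.5 and 147 CPM after bleomycin, and its groups overlapped through the bleomycin 2 library, although each bleomycin library was below the PBS library of its number. Mfap5 was at 520.0, 609 and 349.8 CPM after PBS and 275, 248 and 201 CPM after bleomycin, without overlap. In the blocked fit all 3 fell, by 1.38 (SE 0.32, adjusted p = 0.0421), 1.60 (SE 0.27, adjusted p = 0.0243) and 0.98 (SE 0.18, adjusted p = 0.0275) on the log2 scale.

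The fibulins divided. Fbln1, which binds elastin and fibronectin, was at 147, 391 and 147 CPM after PBS and 66.0, 111 and 62.5 CPM after bleomycin, and fell in the blocked fit (log2 fold change -1.38, SE 0.21, adjusted p = 0.0191). Fbln2 was at 885, 653 and 632 CPM after PBS and 866, 786 and 500.3 CPM after bleomycin, and Fbln5 at 175, 88.1 and 60.0 CPM and 95.6, 169 and 67.0 CPM, so that both groups overlapped widely. Emilin1, the elastin-to-microfibril linker, was at 62.9, 45.3 and 42.9 CPM after PBS and 55.7, 45.9 and 61.3 CPM after bleomycin. The log2 fold changes without the block were 0.02 (SE 0.24) for Fbln2, 0.07 (SE 0.42) for Fbln5 and 0.13 (SE 0.20) for Emilin1, with adjusted p from 0.730 to 0.978.

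**Figure D3:**
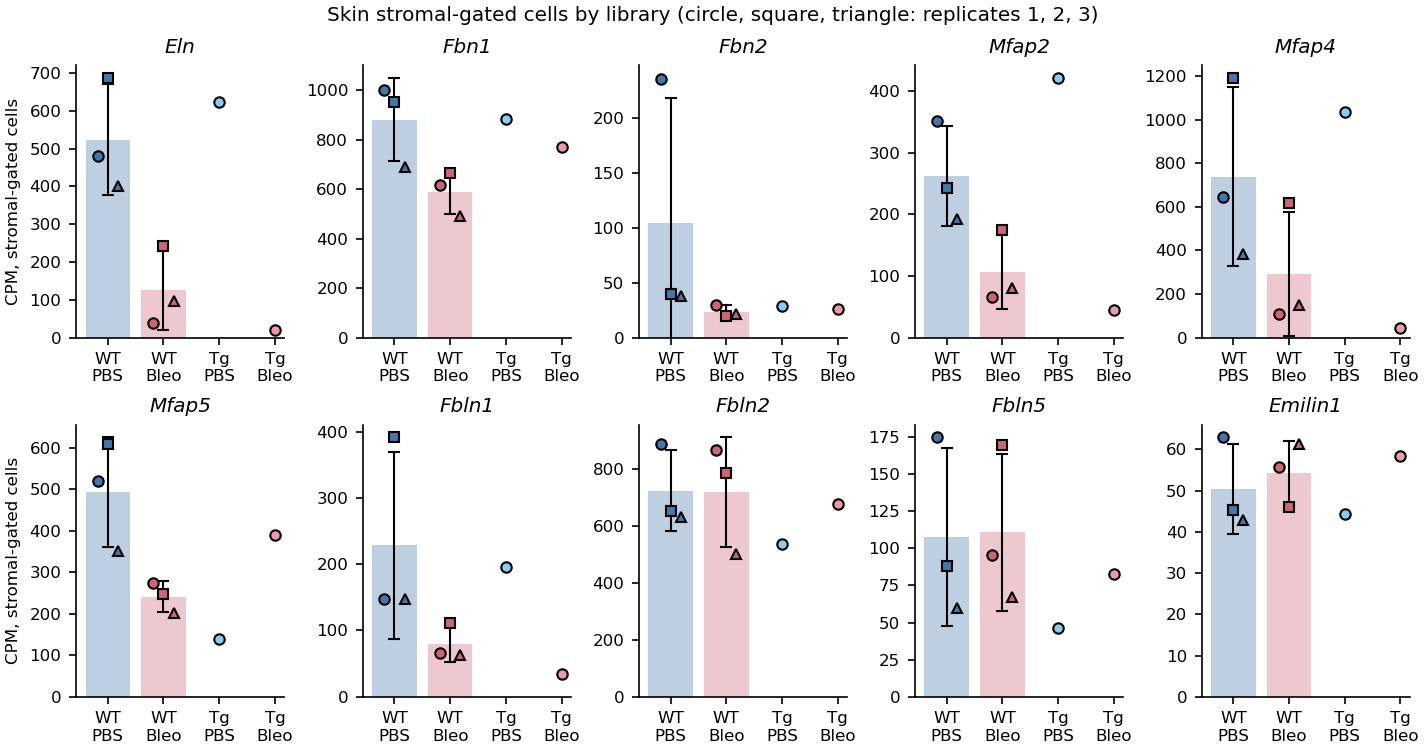
CPM of each gene in stromal-gated skin cells (vertical axes, each from 0) by group, with a point for each library, a bar for the mean of the SARAWT groups and error bars of 1 SD (n = 3) cut at 0; each SARATg group is 1 library. Eln in SARAWT runs from 401 to 686 CPM after PBS and from 38.3 to 241 CPM after bleomycin, and Mfap5 in SARATg goes the other way, from 138 to 391 CPM.

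Leaving out 1 library, without the block, kept the sign of the 6 genes called with the block and moved their size, to -2.91 to -1.63 for Eln, -1.78 to -1.04 for Mfap2, -2.45 to -0.79 for Mfap4, -1.14 to -0.81 for Mfap5, -1.75 to -0.88 for Fbln1 and -2.47 to -0.73 for Fbn2 on the log2 scale. Mfap4 and Fbln1 were nearest to 0 without SARAWT PBS 2, and Mfap4 was farthest from 0 without bleomycin 2.

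The gene lists and software versions split the SARAWT skin libraries into numbers 1 and 2 (longer list) and number 3 (shorter list), so the change was also read within each on log2(CPM + 1). For the same 7 members, all but Fbln2, Fbln5 and Emilin1, the differences ran from -2.56 (Eln) to -0.61 (Fbn1) in the longer-list libraries and from -2.06 (Eln) to -0.49 (Fbn1) in the shorter-list pair, so that all 7 were lower in each. Fbln2 differed by 0.12 and -0.34, Fbln5 by 0.04 and 0.16, and Emilin1 by -0.08 and 0.50.

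**Figure D4:**
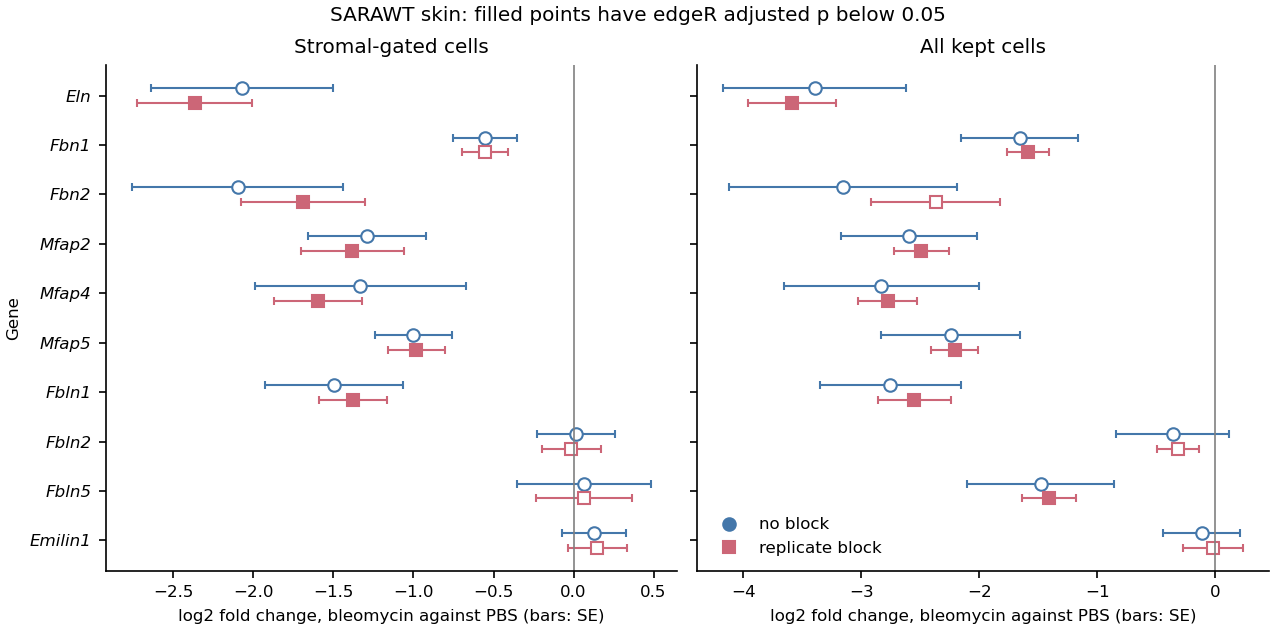
Log2 fold change of each gene, bleomycin against PBS, in SARAWT skin (horizontal axes, bars are 1 SE) for stromal-gated cells (left) and all kept cells (right), without and with the replicate number as a block; filled points have an edgeR adjusted p below 0.05. In the blocked fit 6 genes in stromal cells and 7 in all cells are filled, all to the left of 0.

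Stromal cells were of more than one kind, and their make-up varied between libraries, which was not tested. Cells with adventitial fibroblast markers (Pi16, Dpp4, Cd55, Sema3c, Anxa3; at least 2 detected and 1 more than of another set) were 33.3%, 26.9% and 39.7% of stromal cells in the PBS libraries and 12.7%, 18.6% and 15.5% after bleomycin. Cells with activated fibroblast markers (Cthrc1, Postn, Adam12, Lrrc15, Tnc) were 25.1%, 20.0% and 19.8% after PBS and 43.3%, 22.7% and 42.3% after bleomycin. The adventitial shares did not overlap between treatments and the Cthrc1 shares did. A Crabp1 sub-gate (Crabp1, Corin, Coch, Rspo3, Alx4) held 14.1%, 1.88% and 6.80% after PBS and 0.667%, 2.06% and 12.0% after bleomycin, and 27.5% to 56.7% of SARAWT stromal cells were in no sub-gate. In SARATg the adventitial and Cthrc1 shares were 65.0% and 5.99% after PBS and 3.55% and 70.7% after bleomycin.

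For Eln, Mfap2 and Mfap4 the treatments stood further apart in the Cthrc1 sub-gate than in adventitial cells. Eln there was at 341, 1049 and 667 CPM after PBS and 17.3, 57.8 and 51.3 CPM after bleomycin, against 653 ± 297 and 374 ± 168 CPM in adventitial cells. Mfap4 was at 659.5 ± 400.0 CPM after PBS and 71.9 ± 85.0 CPM after bleomycin in the Cthrc1 sub-gate, while adventitial cells were at 1044 ± 630.0 and 1127 ± 529 CPM. Mfap2 was at 319.8 ± 94.7 and 70.4 ± 39.6 CPM in the Cthrc1 sub-gate and 208 ± 48.0 and 164 ± 48.7 CPM in adventitial cells (SD, n = 3 libraries each). For these 3 genes the Cthrc1 levels did not overlap between treatments and the adventitial levels did. Mfap5 did not overlap in adventitial or Cthrc1 cells, and the share of all genes without overlap was not counted there. The Crabp1 sub-gate had 2 PBS libraries and 1 bleomycin library of 17 cells. Eln there was at a PBS mean of 133 CPM and at 274 CPM after bleomycin. Mfap2 was at 293 and 306 CPM, and Mfap4 at 209 and 321 CPM.

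Other members followed the sub-gates differently. Mfap5 had lower means after bleomycin in both, at 654 ± 261 and 231 ± 133 CPM in adventitial cells and 413 ± 13.3 and 244 ± 46.9 CPM in the Cthrc1 sub-gate. Fbln1 was at higher levels in adventitial cells under both treatments, 359 ± 185 and 251 ± 152 CPM, than in the Cthrc1 sub-gate, 70.7 ± 27.3 and 49.3 ± 17.2 CPM. Fbn1 was at 1303 ± 485 and 771 ± 157 CPM in adventitial cells but 572 ± 166 and 617 ± 101 CPM in the Cthrc1 sub-gate. These levels are descriptions without a test. The smallest adventitial or Cthrc1 sum held 19 cells in SARAWT and 16 cells in SARATg.

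**Figure D5:**
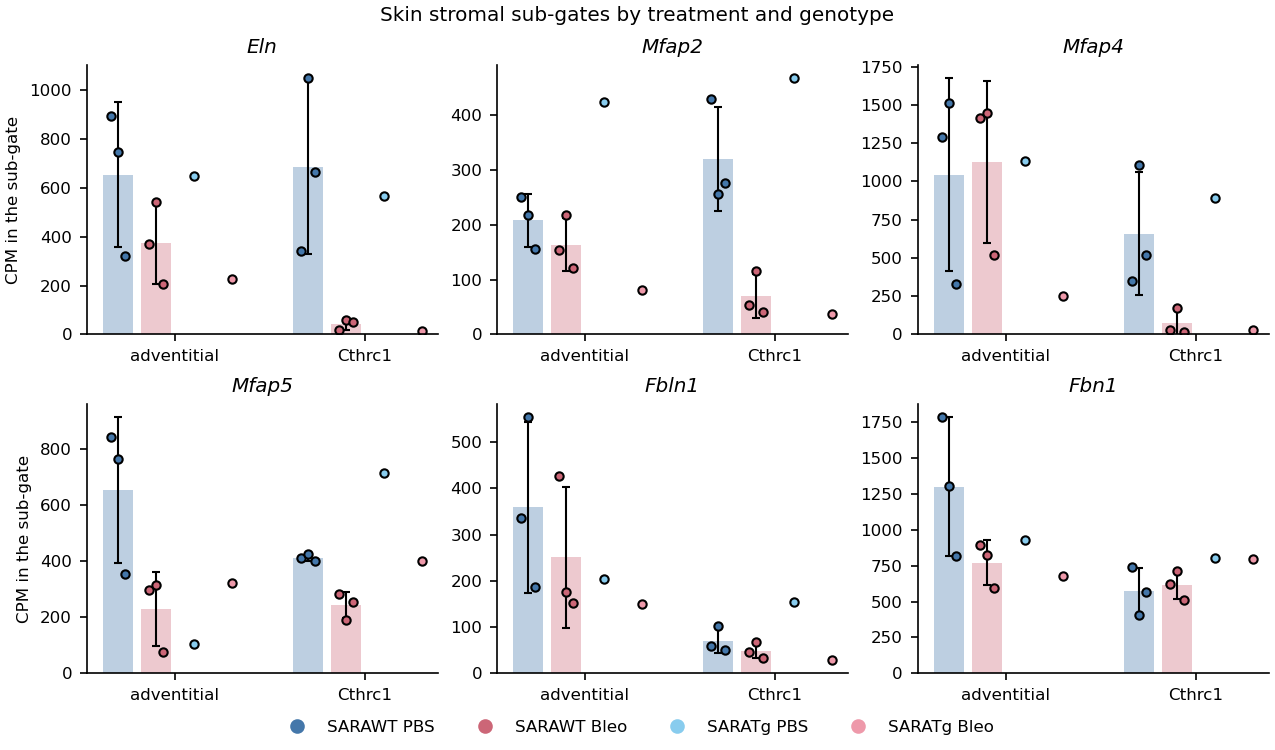
CPM of selected genes (vertical axes, each from 0) in the adventitial and Cthrc1 sub-gates of skin stromal cells, by treatment and genotype, with a point for each library, a bar for the SARAWT mean and error bars of 1 SD (n = 3) cut at 0. Eln in the Cthrc1 sub-gate of SARAWT has a mean of 685 CPM after PBS and 42.1 CPM after bleomycin, and in SARATg it is 568 and 14.4 CPM.

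Over all kept skin cells the differences were larger, and the stromal share moved with them. Stromal cells were 16.4%, 20.5% and 7.61% of kept cells in the PBS libraries and 6.96%, 8.95% and 2.17% after bleomycin (means of 14.8% and 6.03%, two-sided exact permutation p = 0.2, where 0.1 is the smallest that 3 against 3 libraries allow). In sums over all cells, fewer stromal cells and less RNA per cell cannot be told apart. Eln was at 133, 174 and 44.2 CPM after PBS and 4.35, 20.7 and 4.48 CPM after bleomycin, and Mfap4 at 177, 295 and 40.3 CPM and 13.9, 41.3 and 8.19 CPM.

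Without the block no member and no gene of 15335 passed edgeR's test in all cells (percent called 0, 2799 genes with an unadjusted p under 0.05), while the unadjusted p of 8 members was under 0.05 and DESeq2 called 7 members among 1322 genes. With the block 7 members fell, where 3.91% of 15959 genes passed (1.18% higher and 2.73% lower): Eln (log2 fold change -3.59), Mfap4 (-2.78), Fbln1 (-2.55), Mfap2 (-2.49), Mfap5 (-2.21), Fbn1 (-1.59) and Fbln5 (-1.41), with adjusted p from 0.0162 to 0.0388. The library labelled PBS 3 decided the count without the block: without that library 7 members passed, 6 of them among those above, with Fbn2 in place of Fbln5. How many of all genes passed without PBS 3 is not given here, so that count describes the members only. The groups did not overlap for 5 members (Eln, Fbn2, Mfap2, Mfap5 and Fbln1), all lower, where 17% of 8742 genes were lower without overlap and 7.82% higher. The median log2 change of the members without the block was -2.42, against 0.01 over all genes.

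The SARA transgene was compared with SARAWT over both treatments, with treatment and gene list in the model, since each SARATg skin group was 1 library. Both SARATg libraries had the shorter gene list, so the size of the difference rested on SARAWT PBS 3 and bleomycin 3. The library labelled SARAWT PBS 3 had Zfyve9 at 621 CPM, above both SARATg libraries. In stromal cells none of the 10 members passed edgeR's test, as none of 12237 genes did (percent called 0, 471 genes with an unadjusted p under 0.05), and DESeq2 called 11 genes and no member. The log2 differences, SARATg against SARAWT, ran from -0.13 (Eln, SE 0.99) to 0.69 (Fbn1, SE 0.21, adjusted p = 1), with a median of 0.19 against 0.02 over all genes. Leaving out 1 library turned the sign of 8 of these values, with ranges such as -2.26 to 1.02 for Eln and -1.75 to 1.83 for Mfap4, where the ends come from leaving out either SARATg library. In all cells the members were at 0.88 (Emilin1) to 2.27 (Fbn1, adjusted p = 0.0785), and none passed, where 0.0528% of 17054 genes did (0.0469% higher and 0.00586% lower). DESeq2 called 7 members among 1007 genes, and the unadjusted p of 8 members and of 2703 genes was under 0.05. Leaving out 1 library moved these all-cell values widely, to 0.19 to 3.27 for Mfap5, 0.11 to 2.38 for Fbn2, 0.25 to 2.19 for Eln and 0.54 to 1.30 for Emilin1. Over all alternatives Fbn1 ran from 1.27 to 2.66, Mfap2 from 0.90 to 2.57 and Mfap4 from 0.39 to 2.89. Fbln1 ran from 0.53 to 1.82 and Fbln2 from 0.46 to 1.49. The stromal share was 21.6% and 8.73% of kept cells in the SARATg PBS and bleomycin libraries, against 7.61% and 2.17% in SARAWT PBS 3 and bleomycin 3.

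In the 2 SARATg skin libraries 6 members had a lower stromal level after bleomycin, of which Fbn2 had overlapping intervals, and 4 had a higher one, Mfap5, Fbln5, Emilin1 and Fbln2. Eln was at 624 CPM after PBS (95% exact Poisson interval 613 to 636, counting error only, as for the intervals that follow) and 20.4 CPM after bleomycin (18.2 to 22.8). Mfap4 was at 1036 (1021 to 1051) and 45.3 CPM (41.9 to 48.8), and Mfap2 at 421 (412 to 431) and 44.2 CPM (40.9 to 47.7). The bleomycin values of all 3, and of Fbln1, lay below those of every SARAWT bleomycin library, while those of Mfap5 and Fbn1 lay above. The other members lay within the SARAWT range. How many of all genes lay outside that range was not counted, and the difference was not tested. The intervals do not cover the spread between libraries.

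Mfap5 was at 138 CPM (133 to 144) after PBS and 391 CPM (381 to 401) after bleomycin in SARATg, the opposite order to SARAWT. The PBS value was below every SARAWT PBS library, and the bleomycin value was above every SARAWT bleomycin library. The share of all genes with such a pattern was not counted. Within adventitial cells SARATg Mfap5 was at 105 and 322 CPM, and within the Cthrc1 sub-gate at 715 and 402 CPM. Fbln1 was at 196 (189.9 to 203) and 33.8 CPM (30.9 to 36.9), Fbn1 at 882 (868 to 896) and 769 CPM (755 to 783), and Fbn2 at 28.7 (26.3 to 31.3) and 25.7 CPM (23.2 to 28.3). Fbln2 was at 535 (525 to 546) and 678 CPM (664 to 691), Fbln5 at 46.5 (43.3 to 49.7) and 83.0 CPM (78.5 to 87.7), and Emilin1 at 44.4 (41.3 to 47.6) and 58.5 CPM (54.7 to 62.4).

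The difference between genotypes in the response to bleomycin was tested as an interaction in stromal cells, with the gene list in the model. No member passed edgeR's test, where 0.0153% of 13107 genes did (0.00763% in each direction). The unadjusted p of 4 members and of 1360 genes was under 0.05, and DESeq2 called 1 member, Mfap5, among 153 genes. The largest terms were Mfap4 (-3.61, SE 1.08, edgeR adjusted p = 0.290), Eln (-3.30, SE 1.06, adjusted p = 0.311), Mfap2 (-2.40, SE 0.65, adjusted p = 0.263) and Mfap5 (2.03, SE 0.41, adjusted p = 0.176) on the log2 scale. On simulated counts with a log2 fold of 2 this design recovered 0% of the changed genes.

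Of the 54 other genes on the pathway lists (cross-linking enzymes, latent TGF-β binding proteins, other fibulins and emilins, ADAMTS partners, other matrix, elastin-degrading proteases, their inhibitors and integrins), 44 were tested in SARAWT stromal cells. Without the block 1 passed, where 1.37% of all genes tested did. It was Loxl3, a lysyl oxidase-like cross-linking enzyme, which rose (log2 fold change 3.01, SE 0.40, edgeR adjusted p = 0.0302). It was at 11.8, 18.1 and 9.01 CPM after PBS and 141, 77.5 and 60.4 CPM after bleomycin, and at 5.74 and 131 CPM in SARATg. Every bleomycin library lay above every PBS library, opposite to elastin, and the other 4 lysyl oxidases did not pass.

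With the block 8 of the 44 passed, 2 higher and 6 lower, where 4.73% of all genes tested were higher and 4.83% lower, and the list had a median log2 change of -0.30 against -0.03 over all genes. Higher were Loxl3 (2.96) and Mmp9 (3.88), an elastin-degrading gelatinase that was at 1.47, 3.89 and 2.74 CPM after PBS and 69.2, 15.1 and 15.1 CPM after bleomycin. Lower were the inhibitors Timp2 (-0.89) and Timp3 (-1.52) of matrix metalloproteinases, Ltbp4 (-1.47), which binds latent TGF-β and takes part in elastic fibre assembly, Tnxb (-1.73), which encodes tenascin-X, Fbln7 (-2.67) and Adamts10 (-0.95), a protease that binds fibrillin. Adjusted p ran from 0.00561 to 0.0476 for these 8. Of them, Fbln7 rested on 17, 4 and 2 UMIs after bleomycin, and Mmp9 on 13, 3 and 14 UMIs after PBS. No integrin of the 6 tested passed.

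Between stromal and mural cells 26 of the 38 pathway genes tested were higher in stromal cells and 6 were higher in mural cells, where 22.8% and 14.6% of all genes tested were. Genes that pass the count filter through one class alone had to differ, as above. Higher in stromal cells were the cross-linking enzymes Loxl4 (log2 difference 4.73), Loxl1 (4.29), Loxl2 (2.64) and Lox (2.56), the binding proteins Ltbp2 (4.47) and Ltbp4 (3.84), and the cathepsin Ctsk (5.62). Higher in mural cells, beside Emilin1, were the integrins Itga8 (-4.87) and Itgb1 (-0.88), vitronectin (Vtn, -3.53), Thsd4 (-2.77), which encodes the fibrillin-binding ADAMTSL6, Timp3 (-1.62) and Cst3 (-0.58).

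The genes most like each member were ranked by Pearson's r of log2(CPM + 10) over the same 50 class-by-library sums of skin, which share libraries and depth. Fbn1 was most like Loxl1 (r = 0.91), Scarf2 and Bgn, and Mfap4 most like Scara5 (r = 0.98), Cilp and Svep1. Mfap5 was most like Fgf7 (r = 0.94), Eln most like Lrrn4cl (r = 0.87), and Emilin1 most like Mfge8 (r = 0.85), with Pdgfrb among its first 3. Among the members, Mfap2 and Mfap4 were the closest pair (r = 0.90), and Fbln5 and Emilin1 the least alike (r = 0.17).

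In kidney these genes were rare. Only 54 of 61744 kept cells were stromal, 40 of them in SARATg vehicle 2, and 57 were mural, while 54.1% were leukocytes and 32.5% proximal tubule cells. Over all kidney cells Emilin1 had 2732 UMIs, Fbln5 1007, Mfap5 803, Fbln2 666, Fbn1 479, Eln 374, Fbln1 241, Mfap2 160, Mfap4 20 and Fbn2 17.

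For most members the kidney UMIs came from other classes than in skin, while stromal cells held the most pooled UMIs of Mfap5 (83.2%), Fbn1 (42.4%) and Fbln1 (41.1%). SARATg vehicle 2 decided this for Fbln1, since without it stromal cells held 19.6% and proximal tubule cells 48.5% of Fbln1 UMIs, against 82.4% in stromal cells for Mfap5 and 39.4% for Fbn1. Between libraries the stromal share ran from 14.3% to 93.2% for Mfap5, 0% to 81.4% for Fbn1 and 0% to 85.9% for Fbln1. Endothelial-gated cells held 46.0% of Eln, 53.3% of Fbln5, 46.4% of Fbln2 and 44.4% of Mfap2 UMIs. Leukocytes held 70.7% of Emilin1, and proximal tubule cells held 34.4% of Fbln1. In endothelial cells Fbln5 was at 80.4 ± 48.2 CPM, Fbln2 at 51.3 ± 29.4 CPM, Emilin1 at 48.6 ± 18.8 CPM and Eln at 23.0 ± 18.5 CPM (n = 8 libraries).

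Mfap5 was concentrated in 1 library. SARATg vehicle 2 had 564 of the 803 Mfap5 UMIs, at 13.5 CPM over all cells, against 0 to 1.64 CPM in the other 8 libraries. Its 40 stromal cells were at 1863 CPM for Mfap5 (1699 to 2040), 336 CPM for Fbln2 (269 to 416), 265 CPM for Fbln1 (205 to 337), 245 CPM for Fbn1 (188 to 314), 189.9 CPM for Fbln5 (140.0 to 252) and 146 CPM for Eln (103 to 202).

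Neither aristolochic acid, a nephrotoxin, nor the transgene gave a call in kidney. Over all kept cells of SARAWT, none of the 6 members that passed the filter was called (0 of 15977 genes by edgeR, percent called 0, 1550 with an unadjusted p under 0.05). Emilin1 was at 1.21, 1.41 and 8.19 CPM after vehicle and 10.9, 3.51 and 6.75 CPM after aristolochic acid, and Eln at 0.183, 0.246 and 0.861 CPM and 1.09, 0.133 and 0.224 CPM. Both genes overlapped between groups. Leukocytes, which held most Emilin1 UMIs, were 12.5%, 15.0% and 80.5% of kept cells after vehicle. After aristolochic acid they were 87.8%, 66.7% and 85.3%. Of 8 members tested, none was called for the transgene (0 of 17072 genes, percent called 0, 609 with an unadjusted p under 0.05) or for the difference in response between genotypes (0 of 17927, percent called 0, 465), and DESeq2 called 84, 84 and 17 genes in the 3 comparisons and no member. For the transgene the 8 members were at log2 differences of 0.39 (Emilin1, SE 0.64) to 3.27 (Mfap5, SE 2.04), with a median of 1.59 against -0.05 over all genes. When 1 library was left out, Mfap5 ran from -0.66 to 4.42, Fbn1 from 0.66 to 2.15 and Fbln1 from 0.56 to 2.09. Endothelial cells were 12.4%, 6.42% and 2.72% of kept cells in SARATg vehicle 1, vehicle 2 and aristolochic acid 1, and 0.0189% to 2.38% in SARAWT. In these sums, cell make-up and RNA per cell cannot be told apart. Simulated log2 folds of 2 were recovered at 0% in the treatment comparison and 29.9% in the transgene comparison.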

How the data were processed

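The 10 genes and all lists were chosen with earlier results of these data known. The authors deposited UMI counts per gene and cell barcode for each library (mm10, Cell Ranger and Seurat 2.3.4 in the submitters' notes, Cell Ranger 3.0.2, 3.1.0 or 4.0.0 in the file headers, gene lists of 31053 or 32286 entries). Lists were joined by Ensembl ID. The deposited counts were summed per library and cell class (at least 10 cells) and scaled to CPM. Doublet calling was not run; cells with markers of several classes stayed ungated.

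Tests used edgeR 4.0.16 (filterByExpr, TMM, quasi-likelihood, two-sided, Benjamini-Hochberg over all genes, threshold 0.05) in R 4.3.3, and were checked on simulated counts. At a log2 fold of 2, they recovered 79.6% of changed genes for bleomycin in stromal cells, 58.1% in all cells and 87.8% for stromal against mural cells, with 8.07%, 7.5% and 4.05% of the calls false. For bleomycin this check did not cover the fits with the replicate block. The members were named in every comparison.

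Same-numbered SARAWT skin libraries were treated as paired only in the fits with the block. The fits without it and the permutation test of cell shares took them as unpaired. In these same data their deviations correlated at 0.18, 0.21 and 0.36 in stromal cells and 0.26, 0.13 and 0.53 in all cells. In all cells, libraries 1 and 2 correlated as strongly across numbers (0.19 and 0.21). They also share a gene list and Cell Ranger version, so pairing and batch cannot be told apart. Intervals cover counting error only. Alternatives covered DESeq2 1.42.0, size factors, filters, gates, covariates and left-out libraries. The alternatives without the libraries whose Zfyve9 went against the label were chosen after seeing the data.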

Additional observations from a re-analysis of the deposited data

Results flagged for a closer look

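A pair of differences between treatments appeared in cell classes that no test of the report compares between treatments. Fbln2 in Schwann-gated skin cells had a mean of 595 ± 90.9 CPM in the 3 SARAWT bleomycin libraries (493, 668 and 625 CPM) and 53.1 ± 6.74 CPM in 2 SARAWT PBS libraries (48.4 and 57.9 CPM), a ratio of 11.2. SARAWT PBS 2 had 6 Schwann-gated cells and was left out. The PBS libraries used were those labelled PBS 1 and PBS 3, both with a ZFYVE9 or Zfyve9 level against the label. The SARATg libraries had 54.4 CPM after PBS and 438 CPM after bleomycin. Fbn1 in mural-gated skin cells had a mean of 121 ± 47.8 CPM in 2 SARAWT bleomycin libraries (87.6 and 155 CPM) and 34.0 ± 21.9 CPM in 3 PBS libraries (28.9, 15.1 and 58.0 CPM), a ratio of 3.57, on 4 and 11 UMIs against 4, 1 and 22. In the SARATg libraries Fbn1 was at 26.5 and 87.4 CPM. Neither difference was tested across genes.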

How the results depend on the processing

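The count of members past the threshold for bleomycin in SARAWT stromal cells was 0 in the fit reported, 5 with DESeq2 or without a filter on low counts, 4 with a looser gate and 1 with the gene list as a covariate. With the replicate block it was 6. In kidney the deviations of same-numbered libraries correlated at -0.38, 0.42 and 0.31, so they share only a number, and the block gave no call there. Over all genes in stromal cells, 146 passed in the fit reported, 809 with DESeq2, 1009 without the filter, 838 with the looser gate, 1076 with the block, 378 in a fit of all 4 groups and 233 with the gene list covariate. In all skin cells the count of members was 0, and 7 with DESeq2, the replicate block, a fit of all 4 groups or the gene list as a covariate. Over all genes these fits called 1322 of 15335, 624 of 15959, 959 of 18078 and 871 of 15959. Without the filter it was 3 members, among 359 of 23950 genes. For the transgene in all skin cells the count of members was 0, and 7 with DESeq2 (1007 of 17054 genes) and 2 without the filter (70 of 24729 genes). For the interaction the count was 0, and 1 with DESeq2 (Mfap5, where 153 of 13107 genes passed) and 4 without the filter (740 of 21748 genes). The cause of these moves was not tested.

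Leaving out 1 library gave 0 to 2 members in stromal cells (2, Eln and Mfap2, without bleomycin 2), 0 to 7 in all skin cells (7 without PBS 3) and 0 to 1 for aristolochic acid (Emilin1 without vehicle 3). The counts over all genes in these fits are not given, so the member counts cannot be set against them. In stromal cells after bleomycin, Fbln5 turned to -0.16 with a looser gate and Fbln2 to -0.0145 with the replicate block and -0.0181 with the gene list covariate, and leaving out 1 library gave -0.16 to 0.23 for Fbln2 and -0.31 to 0.57 for Fbln5. In all cells that range was -0.84 to 0.0351 for Fbln2 and -0.41 to 0.24 for Emilin1.

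For the transgene in stromal cells, Fbln1 was at -0.0447 with a stricter gate. After bleomycin only, Mfap2 was at -0.88, Mfap4 at -1.75 and Fbln1 at -0.80, and after PBS only, Eln was at 1.04, Fbn2 at -0.54, Mfap5 at -1.02 and Fbln5 at -0.00856. Without the gene list covariate, Fbn2 was at -0.56, Mfap4 at -0.27, Mfap5 at -0.14, Fbln1 at -0.38, Fbln2 at -0.0146 and Fbln5 at -0.54. Without the doubted libraries, Mfap4 was at -0.56 and Fbln1 at -0.62. Leaving out 1 library gave -2.26 to 1.02 for Eln, -0.55 to 0.78 for Fbn2, -0.87 to 1.50 for Mfap2, -1.75 to 1.83 for Mfap4, -1.04 to 1.02 for Mfap5, -0.80 to 0.69 for Fbln1, -0.0283 to 0.32 for Fbln5 and -0.0340 to 0.39 for Emilin1. In the interaction Fbn1 was at 0.12 with a looser gate, and the ranges were -0.31 to 0.11 for Fbln2 and -0.36 to 0.0229 for Emilin1.

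For aristolochic acid in kidney, Eln was at -0.0548 with a stricter cell filter, -0.20 with the replicate block and -1.29 without the doubted libraries, and the ranges were -1.29 to 1.08 for Eln, -0.34 to 1.03 for Fbn1, -0.64 to 0.20 for Fbln1, -1.67 to 1.05 for Fbln2 and -3.27 to 0.13 for Fbln5. For the transgene in kidney, Mfap5 ran from -0.66 to 4.42. The drug-minus-control cell share, in percentage points, was -1.30 for skin mural cells as a share of non-leukocytes and -1.08 with a stricter filter (-0.715 as reported). In kidney it was 0.0274 for stromal and 0.0617 for mural cells as a share of non-leukocytes, and -0.0388 for stromal cells with a stricter filter. Leaving out 1 library gave -12.4 to -5.99 for skin stromal, -0.946 to -0.511 for skin mural, -0.0253 to -0.00768 for kidney stromal and -0.0740 to -0.0194 for kidney mural cells.

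Kidney stromal-gated tests of aristolochic acid and the transgene, and kidney stromal against mural cells, were not run for want of libraries with 10 such cells. The interactions without a SARATg library could not be fitted. Among the recomputed values for single genes, 976 kept their direction and side of the threshold, 76 newly passed it, 3 no longer passed it and 58 changed sign. Depth limits the mural sums, with 144 cells in skin.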
